A study of Rattus norvegicus with 12 samples.

Results

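The Notch genes described here are 8 of the 30452 genes in a table of rat cornea expression, chosen by their symbols. They are the ligands Jag1, Jag2 and Dll1, the receptors Notch1, Notch2 and Notch3, and the target genes Hes1 and Hey1. RNA was sequenced from 12 cornea libraries in 4 groups of 3, labelled SF/HA-HEP-PAM, SF/HA, Alkali-burned and Control. By its title the series concerns a detachable silk patch for the eye surface that takes up inflammatory mediators. SF, HA, HEP and PAM are abbreviations of the labels and are kept as given, and strain, age, burn procedure, time after injury and patch time are not given either. Nothing in the labels tells whether corneas under a patch had been burned, or whether each replicate came from its own animal. Every p-value below therefore reflects variation among these libraries, which may be technical.

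Notch signalling passes between touching cells. A Jagged or Delta-like ligand on the sending cell binds a Notch receptor on its neighbour, ADAM proteases and gamma-secretase then cut the receptor, and the freed intracellular domain enters the nucleus. There it joins RBPJ, a DNA-binding protein, and turns on repressor genes of the Hes and Hey families. In stratified epithelia, the corneal epithelium among them, the pathway is known for its part in differentiation, and in vessel walls Jag1 and Notch3 are known from mural cells.

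Reads assigned to genes numbered 1245606 to 2117399 in SF/HA-HEP-PAM libraries, 499061 to 957696 in SF/HA, 1173159 to 1265298 in Alkali-burned and 486264 to 1015788 in Control. The deposited FPKM values are per kb of the whole gene on the genome with its introns, so a long gene has a low FPKM for its reads. Reads are therefore given beside FPKM, and differences were tested with limma on log2(RPM + 2), where RPM is reads per 1000000 assigned reads. A gene was called higher or lower at a Benjamini-Hochberg adjusted p below 0.05 and a log2 difference above 1 or below -1. Of the 8 Notch genes 6 reached 10 RPM in at least 3 libraries and were tested among 8000 genes, while Notch3 and Hey1 did not. Dll1 reached that level in 5 libraries and Jag2 in 4, and these included all 3 SF/HA-HEP-PAM libraries in each case, so a low level there would have kept both genes out of the test. In bulk tissue fewer cells of a type and less RNA per cell cannot be told apart.

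Jag1, Notch1 and Dll1 were higher in SF/HA-HEP-PAM corneas than in Alkali-burned corneas by 6.01, 4.50 and 2.88 times in mean RPM. Jag1 and Notch1 were also higher in SF/HA-HEP-PAM than in SF/HA, and all 3 were higher in SF/HA-HEP-PAM than in Control. Hes1, the target gene with many reads in every library, was not called in any of the 6 comparisons, and neither was Notch2 or Jag2. Between Alkali-burned and Control no tested Notch gene was called. Over all 4 groups limma's F-test gave adjusted p = 6.40e-05 for Jag1, 0.000369 for Notch1 and 0.000785 for Dll1, against 0.109 for Jag2, 0.340 for Hes1 and 0.702 for Notch2. Those 3 of 6 tested genes stand beside 32% of all 8000 genes at an adjusted p below 0.05 in the same test.

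**Figure D1:**
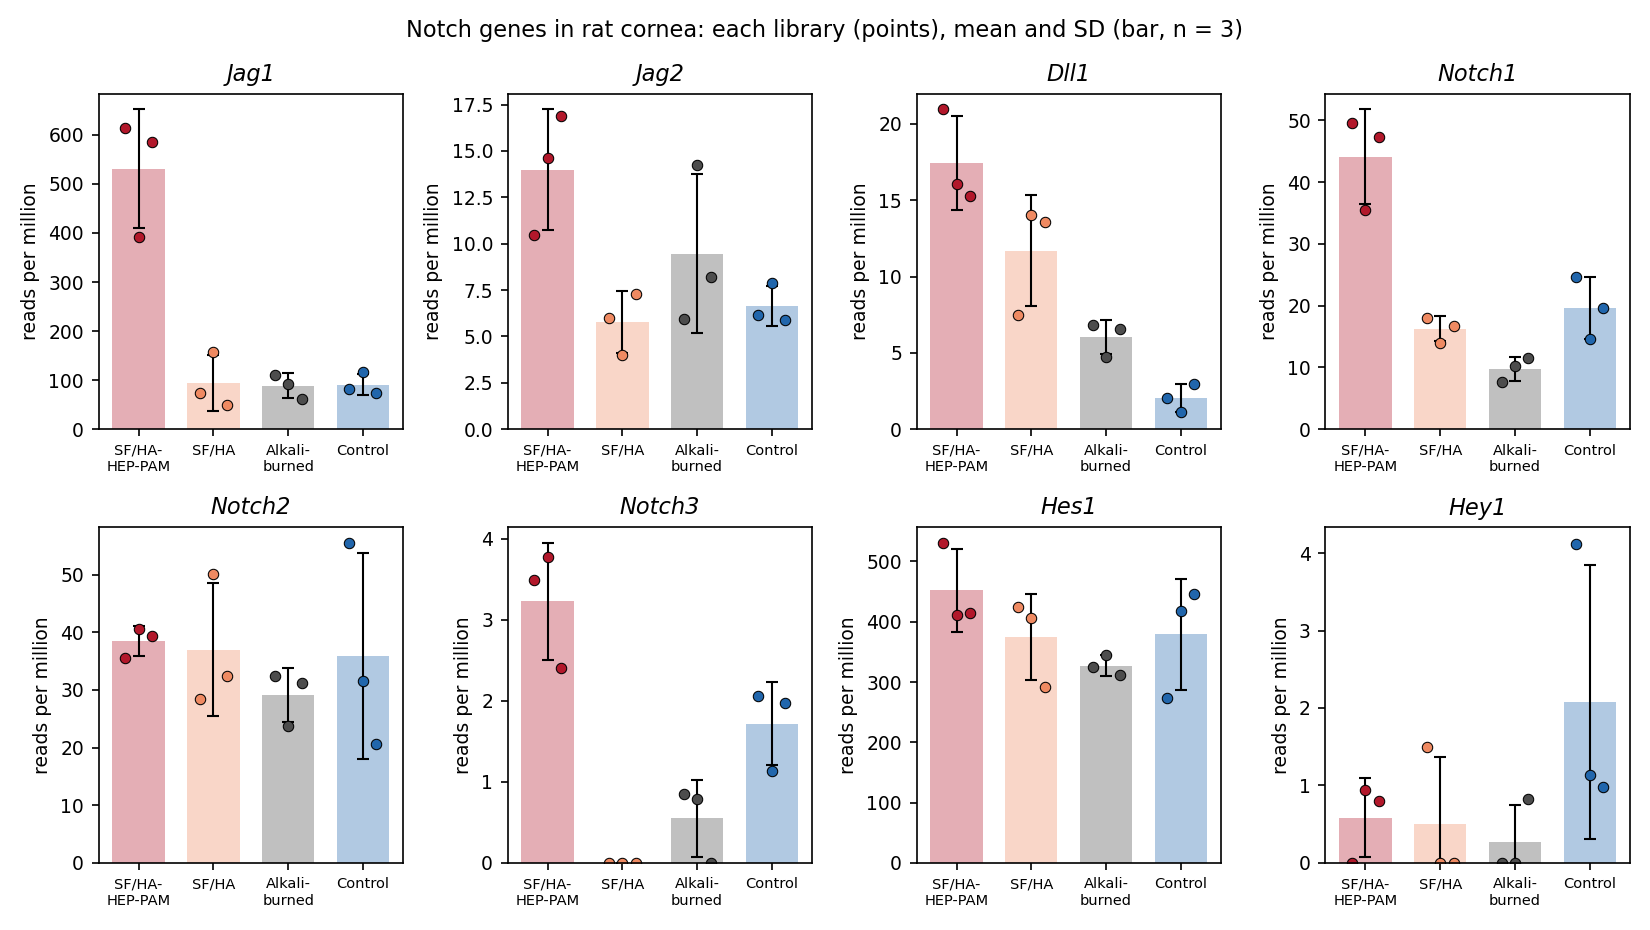
RPM (reads per 1000000 assigned reads) of the 8 Notch genes in each of the 12 libraries (points), with the mean (bar) and SD (line) of 3 libraries per group, SF/HA-HEP-PAM leftmost and Control rightmost in each panel, each panel on its own scale. The SF/HA-HEP-PAM points of Jag1 and Notch1 lie above those of all other groups, while the groups of Hes1 and Notch2 lie close together.

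Jag1, a ligand with a cysteine-rich extracellular part, lies on chromosome 3 from 124406794 to 124442209 of mRatBN7.2 on the minus strand (ENSRNOG00000007443). It received 880, 829 and 729 reads in SF/HA-HEP-PAM replicates 1, 2 and 3, 49, 79 and 47 in SF/HA, 130, 118 and 74 in Alkali-burned and 40, 103 and 76 in Control. In FPKM these were 17.4, 11.1 and 16.5 in SF/HA-HEP-PAM, 2.07, 4.47 and 1.39 in SF/HA, 3.13, 2.63 and 1.72 in Alkali-burned, and 2.32, 3.28 and 2.11 in Control. The lowest SF/HA-HEP-PAM library thus stood above the highest of the other 9, SF/HA replicate 2, and the other 3 groups overlapped. Mean levels were 530.4 ± 121 RPM in SF/HA-HEP-PAM, 93.6 ± 57.3 in SF/HA, 88.3 ± 25.4 in Alkali-burned and 91.1 ± 22.1 in Control (SD, n = 3). The log2 difference was 2.57 between SF/HA-HEP-PAM and Alkali-burned (SE 0.34, 95% interval 1.85 to 3.30, adjusted p = 6.91e-05), 2.62 between SF/HA-HEP-PAM and SF/HA (adjusted p = 0.000336) and 2.51 between SF/HA-HEP-PAM and Control (adjusted p = 9.62e-05). Among the remaining groups the differences were -0.06 for Alkali-burned against Control (interval -0.79 to 0.67), -0.04 for SF/HA against Alkali-burned (-0.77 to 0.68) and -0.10 for SF/HA against Control (-0.83 to 0.62), none of them called. These intervals leave room for a fall of up to 0.83 or a rise of up to 0.68 on the log2 scale.

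The stretches of 250 bases before the RefSeq start of Jag1, Dll1 and Hes1 are shown because Jag1 had the most reads of the called Notch genes, Dll1 was the other called ligand, and Hes1 is the target gene with reads in every library. They are RefSeq sequences of build GRCr8, all on the minus strand, at chr3:144894884-144895133 for Jag1, chr1:64993275-64993524 for Dll1 and chr11:84213046-84213295 for Hes1. Capitals mark CACGNG, a motif bound by Hes and Hey proteins, in Jag1, and TGGGAA, the core of the RBPJ motif, in Dll1 and Hes1, each searched on both strands.
Jag1: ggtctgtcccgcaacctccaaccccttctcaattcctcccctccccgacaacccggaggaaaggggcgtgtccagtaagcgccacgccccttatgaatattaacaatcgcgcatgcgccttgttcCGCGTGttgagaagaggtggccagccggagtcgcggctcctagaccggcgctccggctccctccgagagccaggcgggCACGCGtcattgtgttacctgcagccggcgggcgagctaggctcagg
Dll1: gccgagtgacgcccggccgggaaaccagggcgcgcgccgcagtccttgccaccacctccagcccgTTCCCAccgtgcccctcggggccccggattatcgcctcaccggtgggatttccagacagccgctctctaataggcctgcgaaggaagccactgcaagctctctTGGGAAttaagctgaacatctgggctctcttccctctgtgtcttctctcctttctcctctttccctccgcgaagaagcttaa
Hes1: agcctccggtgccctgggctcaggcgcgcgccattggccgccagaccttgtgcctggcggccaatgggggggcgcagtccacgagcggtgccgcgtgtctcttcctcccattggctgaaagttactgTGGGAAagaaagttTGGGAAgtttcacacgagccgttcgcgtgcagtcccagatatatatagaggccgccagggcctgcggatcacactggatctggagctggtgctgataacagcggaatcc
Of the 33469 windows of this length in the RefSeq table, 22.1% held TGGGAA and 22.5% held CACGNG at least once. TGGGAA occurred 2 times before Hes1, with first bases 123 and 109 bases upstream of the start, and 2 times before Dll1, 185 and 82 bases upstream, the first of these on the opposite strand. It was not in the windows of Jag1, Jag2, Notch1, Notch2 or Notch3. CACGNG, whose N takes any base, occurred 4 times before Hes1, 3 times before Notch2, 2 times before Jag1 and 1 time before Notch1. Jag2 has 2 RefSeq windows, of which 1 held CACGNG. The windows of Dll1 and Notch3 held none, and Hey1 has no entry. A match describes letters and is not shown to be a bound site.

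Dll1, a Delta-like ligand (ENSRNOG00000059984, chromosome 1, 56312066 to 56320179, minus strand), was sparse. It received 30, 34 and 19 reads in SF/HA-HEP-PAM, 5, 7 and 13 in SF/HA, 8, 6 and 8 in Alkali-burned, and 1, 1 and 3 in Control. Its FPKM values were 2.58, 1.98 and 1.88 in SF/HA-HEP-PAM, 0.923, 1.73 and 1.67 in SF/HA, 0.840, 0.584 and 0.810 in Alkali-burned, and 0.253, 0.139 and 0.364 in Control. The 4 groups did not overlap: SF/HA-HEP-PAM was highest, SF/HA next, Alkali-burned below it and Control lowest. Neighbours in this order did not pass the test. SF/HA-HEP-PAM against SF/HA gave a log2 difference of 0.53 (adjusted p = 0.348), SF/HA against Alkali-burned 0.74 (adjusted p = 0.312) and Alkali-burned against Control 1.01 (SE 0.35, adjusted p = 0.0833). Groups further apart did pass. Dll1 was higher in SF/HA-HEP-PAM than in Alkali-burned (log2 1.27, SE 0.35, adjusted p = 0.0154), higher in SF/HA than in Control (1.75, adjusted p = 0.00468) and higher in SF/HA-HEP-PAM than in Control (2.28, adjusted p = 0.000294). Control levels of 1.13 to 2.95 RPM lie near the added 2, so the size of the differences against Control depends on it. The call between SF/HA-HEP-PAM and Alkali-burned was lost without SF/HA-HEP-PAM replicate 1 (1.14, adjusted p = 0.0700) and without Alkali-burned replicate 2 (1.15, adjusted p = 0.0607). With all libraries thinned to 486264 reads neither that call (1.09, adjusted p = 0.149) nor the call between SF/HA and Control (1.01, adjusted p = 0.312) passed.

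Jag2, the other Jagged ligand (ENSRNOG00000013927, chromosome 6, 131983056 to 132005818, minus strand), received 15, 31 and 21 reads in SF/HA-HEP-PAM, 4, 2 and 7 in SF/HA, 7, 18 and 10 in Alkali-burned, and 3, 7 and 6 in Control. In FPKM its groups ran from 0.460 to 0.741 in SF/HA-HEP-PAM, 0.176 to 0.321 in SF/HA, 0.262 to 0.625 in Alkali-burned and 0.259 to 0.347 in Control. SF/HA-HEP-PAM libraries lay above all SF/HA and Control libraries and overlapped with Alkali-burned, through Alkali-burned replicate 2. The log2 differences were 1.04 between SF/HA-HEP-PAM and SF/HA (SE 0.36, adjusted p = 0.0688), 0.87 between SF/HA-HEP-PAM and Control (adjusted p = 0.0898) and 0.52 between SF/HA-HEP-PAM and Alkali-burned (adjusted p = 0.307). The first of these passed without Control replicate 1, which changes the shared spread and the adjustment but not the difference (adjusted p = 0.0479).

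Notch1, the receptor best known from epidermal differentiation, lies on chromosome 3 from 9278086 to 9323531 on the minus strand (ENSRNOG00000019322). It received 71, 75 and 59 reads in SF/HA-HEP-PAM, 12, 7 and 16 in SF/HA, 9, 13 and 14 in Alkali-burned, and 12, 13 and 20 in Control. Its FPKM values were 1.09, 0.779 and 1.04 in SF/HA-HEP-PAM, 0.395, 0.309 and 0.368 in SF/HA, 0.169, 0.226 and 0.253 in Alkali-burned, and 0.543, 0.323 and 0.433 in Control. All 3 SF/HA-HEP-PAM libraries lay above the other 9, all 3 Alkali-burned libraries lay below the other 9, and SF/HA and Control overlapped. Mean levels were 44.1 ± 7.62 RPM in SF/HA-HEP-PAM, 16.2 ± 2.01 in SF/HA, 9.82 ± 1.96 in Alkali-burned and 19.7 ± 5.01 in Control (SD, n = 3). The receptor was higher in SF/HA-HEP-PAM than in Alkali-burned by 1.96 on the log2 scale (SE 0.27, 95% interval 1.39 to 2.54, adjusted p = 9.04e-05). It was higher in SF/HA-HEP-PAM than in SF/HA by 1.33 (adjusted p = 0.00538) and than in Control by 1.10 (adjusted p = 0.00730). The last of these fell short of a log2 difference of 1 without Control replicate 2 (0.93, adjusted p = 0.0370), with median-of-ratios scaling (0.91) and with quantile normalization (0.84). Alkali-burned against Control gave -0.86 (SE 0.27, interval -1.43 to -0.29, adjusted p = 0.0505), which met neither the p nor the size needed for a call, and it met both without Control replicate 2 (-1.04, adjusted p = 0.0421). SF/HA against Alkali-burned gave 0.63 (adjusted p = 0.244) and SF/HA against Control -0.23 (adjusted p = 0.661).

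Notch2, a paralogous receptor with the longest span of the 8 genes (ENSRNOG00000018835, chromosome 2, 185610589 to 185744088, plus strand), received 51, 86 and 49 reads in SF/HA-HEP-PAM, 19, 25 and 31 in SF/HA, 38, 30 and 38 in Alkali-burned, and 27, 28 and 21 in Control. These were 0.267, 0.304 and 0.295 FPKM in SF/HA-HEP-PAM, 0.213, 0.375 and 0.242 in SF/HA, 0.243, 0.178 and 0.234 in Alkali-burned, and 0.416, 0.237 and 0.155 in Control. SF/HA-HEP-PAM lay above Alkali-burned without overlap and overlapped with both other groups. No comparison was called: SF/HA-HEP-PAM against Alkali-burned gave 0.39 on the log2 scale (SE 0.31, interval -0.26 to 1.04, adjusted p = 0.379). The difference between SF/HA-HEP-PAM and SF/HA was 0.09 (interval -0.56 to 0.75) and changed sign with median-of-ratios scaling (-0.11) and quantile normalization (-0.20).

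Notch3, the receptor known from mural cells of vessels (ENSRNOG00000004346, chromosome 7, 11133706 to 11184025, minus strand), was near the limit of detection. It received 5, 8 and 3 reads in SF/HA-HEP-PAM, 0 in each SF/HA library, 1, 1 and 0 in Alkali-burned, and 1, 1 and 2 in Control. Pooled over a group, this was 3.34 RPM in SF/HA-HEP-PAM (95% exact Poisson interval 1.91 to 5.42), 0 in SF/HA (0 to 1.74), 0.547 in Alkali-burned (0.0663 to 1.98) and 1.67 in Control (0.456 to 4.29), for counting error only. The floor of 3 reads over the SF/HA group is 1.41 RPM. The intervals of SF/HA-HEP-PAM and SF/HA do not overlap, while that of SF/HA-HEP-PAM overlaps those of Alkali-burned and Control. A fit with no filter on low values, over 18929 genes, called Notch3 higher in SF/HA-HEP-PAM than in Alkali-burned (1.05, adjusted p = 0.0217) and than in SF/HA (adjusted p = 0.00807), but its fitted sizes depend on the added 2. A gene on the opposite strand, AABR07055864.2, overlaps Notch3 and had 0 reads in all libraries.

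Hes1, a transcriptional repressor and direct target of Notch in many cell types, lies on chromosome 11 from 70705764 to 70708192 on the minus strand (ENSRNOG00000001720). It received 760, 870 and 516 reads in SF/HA-HEP-PAM, 283, 203 and 280 in SF/HA, 381, 437 and 379 in Alkali-burned, and 133, 370 and 453 in Control. In FPKM these were 218, 169 and 171 in SF/HA-HEP-PAM, 174, 167 and 120 in SF/HA, 134, 142 and 128 in Alkali-burned, and 113, 172 and 184 in Control. SF/HA-HEP-PAM libraries lay above all Alkali-burned libraries and overlapped with SF/HA and Control. The log2 difference between SF/HA-HEP-PAM and Alkali-burned was 0.45 (SE 0.21, 95% interval 0.01 to 0.90) and did not pass (adjusted p = 0.126). SF/HA-HEP-PAM against SF/HA gave 0.28 (interval -0.17 to 0.73, adjusted p = 0.408) and SF/HA-HEP-PAM against Control 0.27 (-0.17 to 0.72, adjusted p = 0.383). At this precision a change of Hes1 as large as the fitted value of Jag1 or Notch1 in the same comparison lies outside these intervals, since their upper bounds of 0.72 to 0.90 are below 1. Against Control, though, the interval of Notch1 itself, 0.53 to 1.67, overlaps that of Hes1.

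Hey1, a Hes-related target known from vessels and heart (ENSRNOG00000062882, chromosome 2, 93095498 to 93100312, plus strand), received 0, 2 and 1 reads in SF/HA-HEP-PAM, 1, 0 and 0 in SF/HA, 0, 0 and 1 in Alkali-burned, and 2, 1 and 1 in Control. Pooled levels were 0.626 RPM in SF/HA-HEP-PAM (95% exact Poisson interval 0.129 to 1.83), 0.471 in SF/HA (0.0119 to 2.62), 0.274 in Alkali-burned (0.00693 to 1.52) and 1.67 in Control (0.456 to 4.29). All 4 intervals overlap, so differences of Hey1 were not detectable at this depth.

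Read against all genes tested, the Notch genes were called most often where many genes were called. Between SF/HA-HEP-PAM and Alkali-burned 3 of 6 tested Notch genes were called higher and 0 lower, beside 13.5% of all genes called higher, 5.01% called lower and 18.5% called in either direction. The groups did not overlap in 5 of 6, beside 49.9% of all genes. Between SF/HA-HEP-PAM and SF/HA 2 of 6 were called higher and 0 lower, beside 8.04% of all genes called higher, 1% called lower and 9.04% in either direction, and 4 of 6 did not overlap, beside 33.8%. Between SF/HA-HEP-PAM and Control 3 of 6 were called higher and 0 lower, beside 14.2% higher, 3.26% lower and 17.4% in either direction, and 4 did not overlap, beside 38.4%. Dll1 and Jag2 are among these 6 and reached the tested level only with their SF/HA-HEP-PAM libraries. The counts in these 3 comparisons therefore include genes that could enter only if high in that group.

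Between SF/HA and Control 1 of 6 was called higher, Dll1, and 0 lower, beside 4.89% of all genes called higher, 2.36% called lower and 7.25% in either direction, and 1 did not overlap, beside 22.3%. Between SF/HA and Alkali-burned 0 of 6 were called, beside 0.975% of all genes called higher, 2.69% called lower and 3.66% in either direction. There 2 did not overlap, beside 22.6%, and at an unadjusted p below 0.05 limma would pass 1 gene, Notch1 (0.0320). Between Alkali-burned and Control 0 of 6 were called, beside 6.01% higher, 2.49% lower and 8.5% in either direction. There 2 did not overlap, beside 28.9%, and at an unadjusted p below 0.05 limma would pass 2 genes, Dll1 (0.0117) and Notch1 (0.00557). With the tool's variance trend left out 1 of 6 was called there, Dll1 (adjusted p = 0.0316). No share of all genes at an unadjusted p below 0.05 is given here, so those unadjusted counts cannot be read against all genes. The 3 comparisons of SF/HA-HEP-PAM share its libraries, and all 4 groups share 1 estimate of the spread.

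The median log2 difference of the 6 genes was 0.90 in SF/HA-HEP-PAM against Alkali-burned, beside 0.15 over all genes, 0.79 beside 0.22 in SF/HA-HEP-PAM against SF/HA, and 0.99 beside 0.21 in SF/HA-HEP-PAM against Control. These medians also include Dll1 and Jag2, which were tested only through their SF/HA-HEP-PAM levels. In the comparisons without SF/HA-HEP-PAM the median of the 6 was -0.12 beside 0.01 for Alkali-burned against Control, 0.24 beside -0.03 for SF/HA against Alkali-burned, and -0.05 beside -0.03 for SF/HA against Control. With median-of-ratios scaling the medians over all genes in the 3 SF/HA-HEP-PAM comparisons came to -0.02, 0.02 and 0.03. The genes called higher were then 58.2%, 66.4% and 67.7% of all calls, where they were 72.9%, 88.9% and 81.3% as reported. Relative to the median of all genes Jag1 was higher by 2.42 in SF/HA-HEP-PAM than in Alkali-burned, by 2.40 than in SF/HA and by 2.30 than in Control. Notch1 was higher by 1.81 against Alkali-burned, 1.11 against SF/HA and 0.89 against Control. Dll1 exceeded that median by 1.12 against Alkali-burned, 0.31 against SF/HA and 2.06 against Control.

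**Figure D2:**
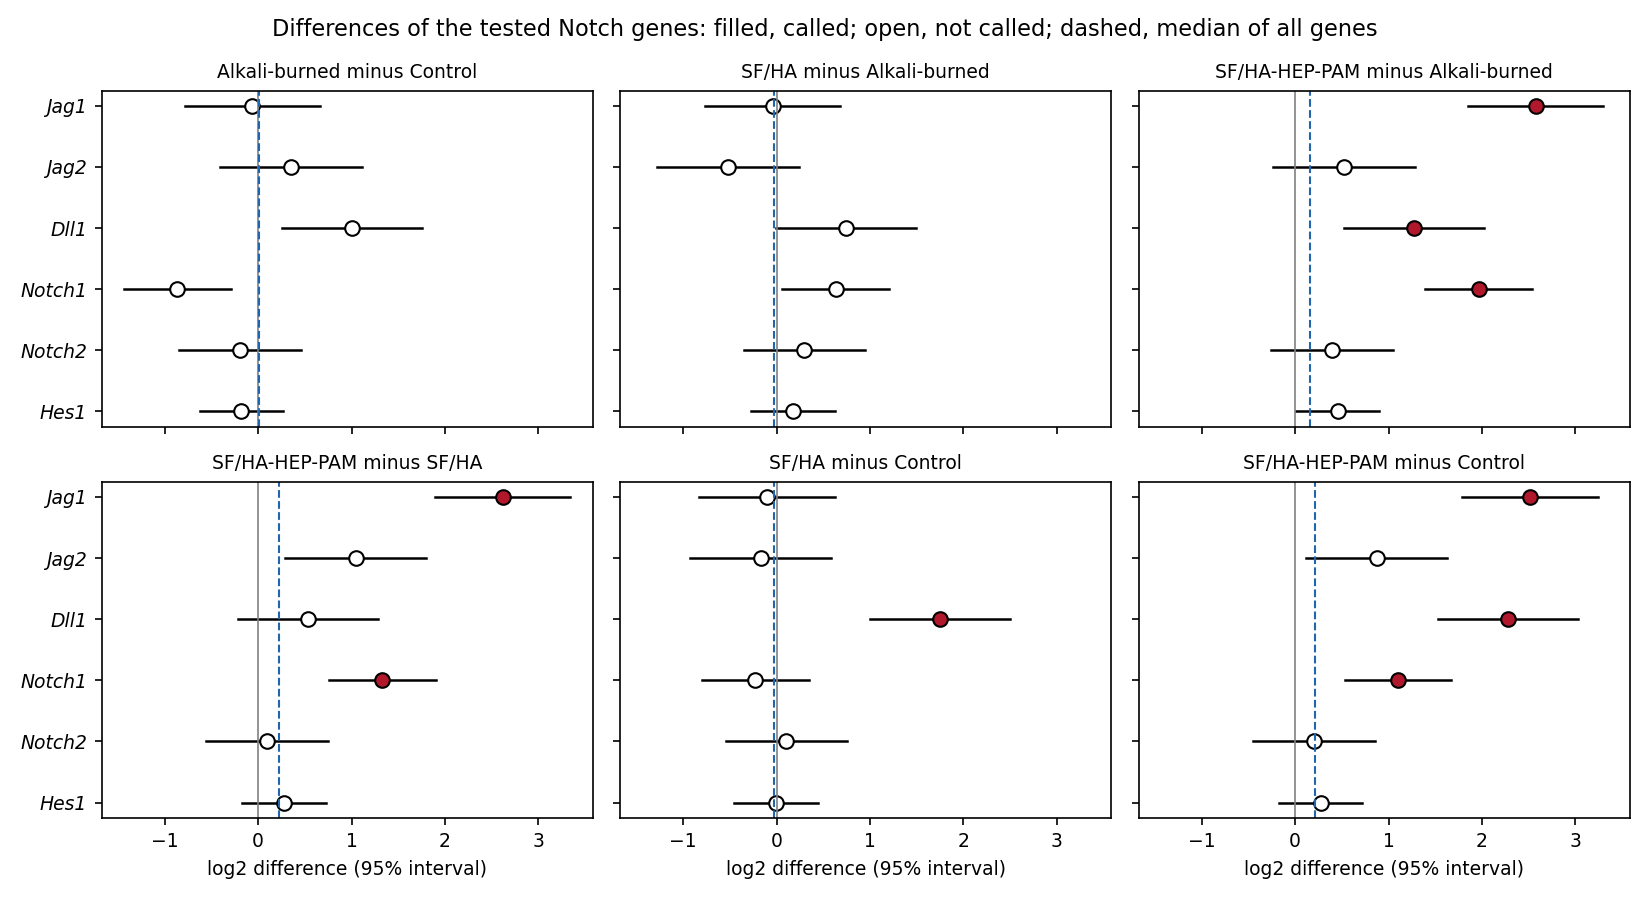
Log2 differences of the 6 tested Notch genes (points) with 95% intervals (lines) in the 6 comparisons, each named above its panel with the subtracted group last; filled points were called, and the dashed line is the median of all genes tested. Jag1 is filled in the 3 panels with SF/HA-HEP-PAM, at 2.51 to 2.62, and lies at -0.10 to -0.04 in the others.

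Differences moved with gene length in the SF/HA-HEP-PAM comparisons and, in the other direction, in Alkali-burned and SF/HA against Control. Of the 8 Notch genes 5 span over 20 kb. In SF/HA-HEP-PAM against Alkali-burned the median log2 difference, taken in 10 length classes of 800 genes each, was -0.20 in the shortest class, 0.48 in class 9 and 0.37 in the longest. In SF/HA-HEP-PAM against Control it was 0.06 in the shortest class and 0.27 in the longest. In Alkali-burned against Control it was 0.19 and -0.11 in these classes, and in SF/HA against Control 0.12 and -0.17. The share of reads on the longest class was 3.23% to 3.91% in SF/HA-HEP-PAM libraries, 2.59% to 2.73% in SF/HA, 2.84% to 2.95% in Alkali-burned and 2.71% to 3.87% in Control. In SF/HA-HEP-PAM against Alkali-burned Jag1, at 35.4 kb, lies in class 7, where the median was 0.27 and 14.4% of genes were called higher. It exceeded that median by 2.31. Notch1, at 45.4 kb, lies in class 8, with a median of 0.39 and 20.1% called higher, and exceeded it by 1.58. Notch2, at 134 kb, lies in the longest class and exceeded its median by 0.02. Among the short genes Dll1, at 8.11 kb, exceeded the median of its class by 1.25 and Hes1, at 2.43 kb, by 0.66.

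Against SF/HA and Control, Jag1 exceeded the median of its length class by 2.30 and 2.24, and Notch1 exceeded its own by 0.93 and 0.76. With the trend over gene length subtracted, Jag1 kept its 3 calls, and Notch1 kept the call against Alkali-burned. The other calls of Notch1 then fell short of a log2 difference of 1, at 0.92 for SF/HA-HEP-PAM against SF/HA (adjusted p = 0.0280) and 0.72 for SF/HA-HEP-PAM against Control (adjusted p = 0.0426). The share of reads on the longest class was higher in all 3 SF/HA-HEP-PAM libraries than in SF/HA and Alkali-burned, but Control replicate 1, at 3.87%, lay within their range and the other Control libraries, at 2.75% and 2.71%, did not. Its part in the Notch1 values was not tested beyond this subtraction.

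**Figure D3:**
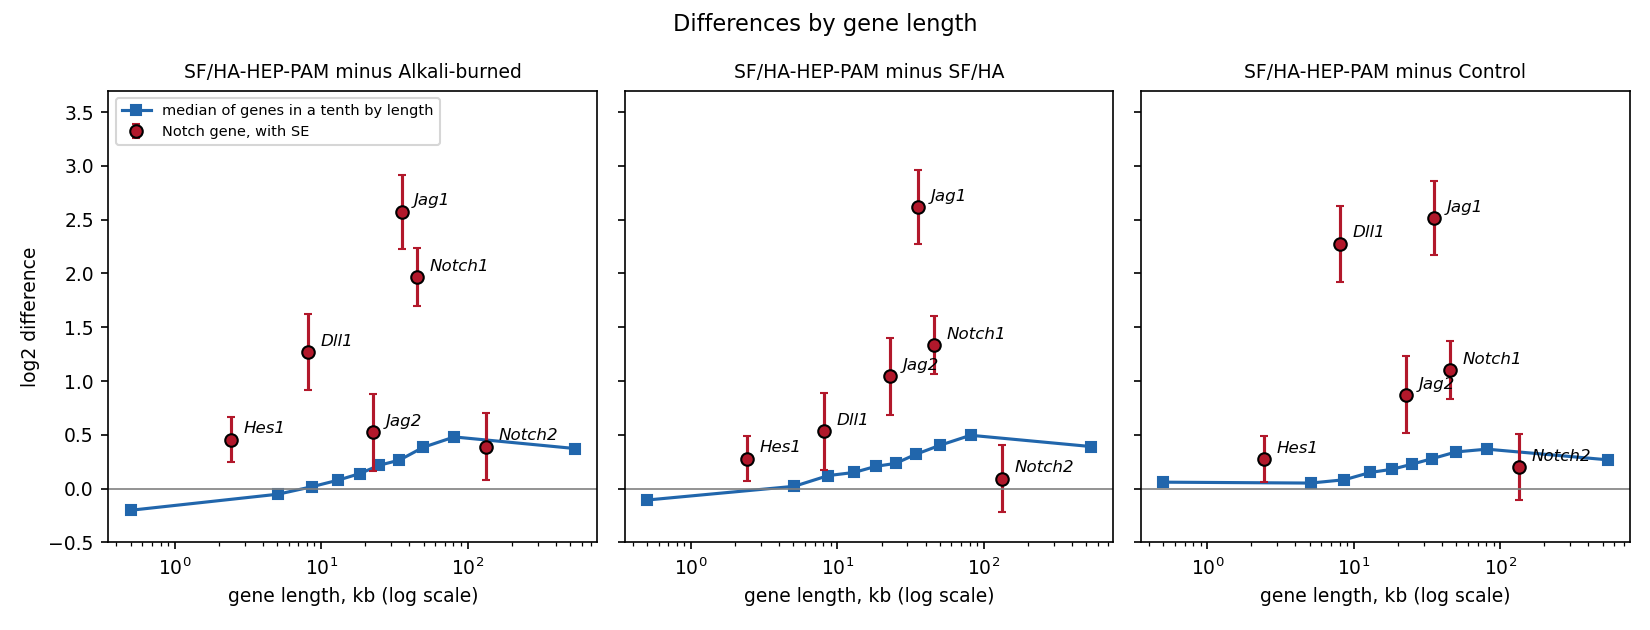
Log2 differences (vertical) by gene length in kb on a log scale (horizontal) for SF/HA-HEP-PAM against each of the other 3 groups; red points are the tested Notch genes with their SE, and blue squares are medians of 800 genes per length class, placed at the middle of each class. Jag1 lies over 2 log2 units above the squares in all 3 panels, and Notch2 lies near or below them.

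The wider pathway was followed through 58 further symbols in 8 classes, which match 59 gene IDs, 34 of them tested. Between SF/HA-HEP-PAM and Alkali-burned 4 of 34 were called higher (11.8%) and 0 lower, beside 13.5% and 5.01% of all genes, and the median log2 difference of the 34 was 0.47, beside 0.15 over all genes. The called genes were Adam17, a protease that can cut Notch receptors (log2 1.01, adjusted p = 0.0447), Maml3, a coactivator of the RBPJ complex (1.51, adjusted p = 0.0169), Ep300, a histone acetyltransferase that the complex recruits (1.23, adjusted p = 0.0190), and Tle4, a co-repressor of the Groucho family (1.32, adjusted p = 0.0190). Tle4 reached 10 RPM in 5 libraries, 3 of them SF/HA-HEP-PAM, so like Dll1 and Jag2 it was tested only through its level there. The same holds for Numb, which reached 10 RPM only in SF/HA-HEP-PAM (10.4 to 10.5), and for Fbxw7. The counts and medians of the 34 in the SF/HA-HEP-PAM comparisons include these genes. Against SF/HA, 3 were called higher (8.8%, beside 8.04% of all genes), namely Adam17 (1.31), Ep300 (2.82) and Dtx3l, a ubiquitin ligase of the Deltex family (1.76). Against Control, 3 were called higher (8.8%, beside 14.2%), namely Adam17 (1.53), Ep300 (1.42) and Lfng, a glycosyltransferase that changes which ligands Notch binds (1.46). Of the other comparisons, SF/HA against Alkali-burned had 0 called higher and 2 called lower (5.9%, beside 2.69% of all genes), Ep300 (-1.59) and Dtx3l (-2.08). Lfng was called higher in SF/HA than in Control (1.26), as 1 of 34 beside 4.89% of all genes, and Ep300 (-1.40) and Cir1, a co-repressor that binds RBPJ (-1.12), were called lower there, as 2 of 34 beside 2.36%. Between Alkali-burned and Control limma called 0 of 34, beside 8.5% of all genes, with a median of 0.05, beside 0.01. There 6 of 34 had an unadjusted p below 0.05, for which no share of all genes is given.

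These genes had few reads. Ep300 received 41 to 72 reads per library in SF/HA-HEP-PAM, 2 to 3 in SF/HA, 13 to 27 in Alkali-burned and 9 to 10 in Control, so SF/HA lay below the other groups without overlap. Maml3 received 30 to 36 reads in SF/HA-HEP-PAM, 4 to 8 in SF/HA, 6 to 10 in Alkali-burned and 4 to 12 in Control. Adam17 received 48 to 67 reads in SF/HA-HEP-PAM, 7 to 13 in SF/HA, 18 to 24 in Alkali-burned and 7 to 11 in Control, and in RPM its SF/HA-HEP-PAM and SF/HA libraries overlapped. Of the 15 calls in the wider pathway 3 held in each of the 12 fits that drop a library: Ep300 in SF/HA-HEP-PAM against SF/HA, and Adam17 and Lfng in SF/HA-HEP-PAM against Control. All 4 in SF/HA-HEP-PAM against Alkali-burned lost it without SF/HA-HEP-PAM replicate 1, with adjusted p = 0.166 for Adam17, 0.0985 for Ep300, 0.0503 for Maml3 and 0.112 for Tle4, and the values in brackets that follow are adjusted p as well. Without Alkali-burned replicate 1 Adam17 (0.0981), Ep300 (0.0808) and Tle4 (0.0674) lost it, without Alkali-burned replicate 2 Adam17 (0.0748), Ep300 (0.0709) and Maml3 (0.0589), and without Alkali-burned replicate 3 Adam17 (0.130) and Maml3 (0.0612). Without SF/HA-HEP-PAM replicate 3 Adam17 (0.122), Maml3 (0.0662) and Tle4 (0.0518) lost it, as did Adam17 without Control replicate 3 (0.0526). With the trend over gene length subtracted all 4 lost it, Adam17 (0.190), Ep300 (0.0842), Maml3 (0.0535) and Tle4 (0.0603). Their log2 differences were then 0.61, 0.78, 1.10 and 0.89. Adam17 in SF/HA-HEP-PAM against SF/HA lost its call with that subtraction too (log2 0.89, adjusted p = 0.0992).

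Against SF/HA, Adam17 in SF/HA-HEP-PAM lost the call without SF/HA replicate 1 (0.0792), SF/HA replicate 3 (0.124), SF/HA-HEP-PAM replicate 1 (0.109) or SF/HA-HEP-PAM replicate 3 (0.0926), and Dtx3l without the last 3 of these (0.0624, 0.0603 and 0.0722). Against Control, Ep300 lost it without SF/HA-HEP-PAM replicate 1 (0.0536). In SF/HA against Alkali-burned Dtx3l lost it without Alkali-burned replicates 2 or 3 (0.0720 and 0.0718), and Ep300 without Alkali-burned replicate 3 (0.120) or SF/HA replicate 3 (0.0549). In SF/HA against Control Cir1 lost it without SF/HA replicate 2 (0.0581), Ep300 without SF/HA replicate 3 (0.0822), and Lfng in 9 of the 12 fits (up to 0.158, without Control replicate 2). Some genes lie over others: Lfng overlaps Ttyh3, Dtx3l overlaps Parp9 and Adam17 overlaps Iah1, and whether strand was used in counting is not given in the sources used here. Genes lying over Lfng, Dtx3l and Adam17 had up to 32, 36 and 64 reads in a library. Lfng, Dtx3l and Adam17 themselves had up to 34, 36 and 67. The part of such overlaps in these calls was not tested. Ep300 overlaps a second gene ID of the same symbol, which had at most 2 reads in any library.

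Among classes, the highest tested gene by mean RPM over 12 libraries was Dlk1 for other ligands (12.4), Psenen for cleavage (191.7), Rfng for glycosylation (30.04), Rbpj for the transcription complex (42.6), Hdac1 for co-repressors (134), Dtx3 for regulators (21.0) and Nrarp for other targets (64.6). Notch4, the only other receptor, was not tested, nor were 6 of the 8 other target genes. Nrarp, a target gene whose product restrains Notch signalling, had 65.6 to 124 RPM in SF/HA-HEP-PAM, 64.1 to 68.9 in SF/HA, 33.2 to 54.5 in Alkali-burned and 30.8 to 84.7 in Control. SF/HA-HEP-PAM thus lay above Alkali-burned without overlap, with a log2 difference of 0.96 (adjusted p = 0.0337), under the size needed for a call. Hes6, the other tested target, gave -0.06 (adjusted p = 0.907).

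**Figure D4:**
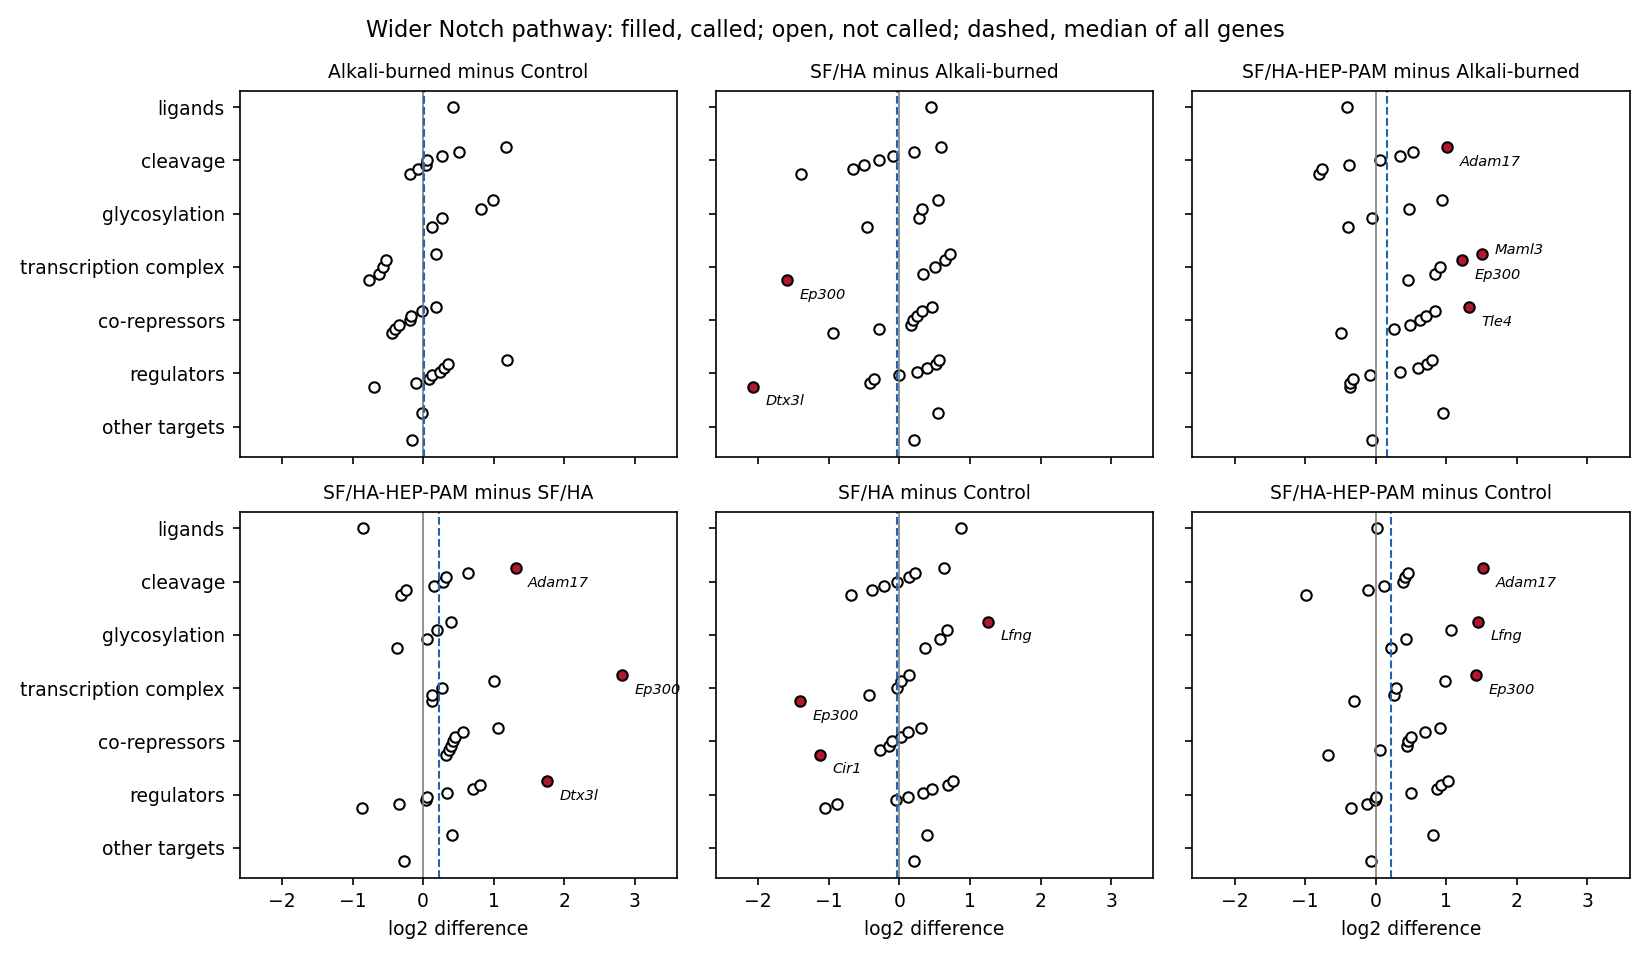
Log2 differences of 34 tested genes of the wider Notch pathway by class (rows) in the 6 comparisons, each named above its panel with the subtracted group last; filled red points with names were called, open points were not, and the dashed line is the median of all genes tested. Between Alkali-burned and Control no point is filled, and Ep300 is filled in the other 5 panels.

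Cell type markers were set beside these results. Krt12, the keratin that defines corneal epithelium, was abundant in all groups, with means of 15344 RPM in SF/HA-HEP-PAM, 11244 in SF/HA, 11052 in Alkali-burned and 20787 in Control. Of 8 corneal epithelium markers 6 were in the table, and their summed level was 25657 to 35228 RPM in SF/HA-HEP-PAM, 20737 to 31421 in SF/HA, 17265 to 26689 in Alkali-burned and 32748 to 56752 in Control. Of these 6, Pax6 (1.66) and Cdh1 (1.86) were called higher in SF/HA-HEP-PAM than in Alkali-burned. Krt12 (0.51, adjusted p = 0.236), Krt5 (0.74), Aldh3a1 (0.25) and Tkt (0.20) were not called there. Against SF/HA, Pax6 (1.21) and Cdh1 (1.17) were also called higher in SF/HA-HEP-PAM, and Krt12, Krt5, Aldh3a1 and Tkt were not called. In Alkali-burned against Control Pax6 (-1.33), Aldh3a1 (-1.27) and Tkt (-1.30) were called lower, while Krt12 (-0.88), Krt5 (-0.99) and Cdh1 (-0.60) were not called. In SF/HA-HEP-PAM against Control Cdh1 was called higher (1.26), Aldh3a1 (-1.01) and Tkt (-1.10) lower, and Pax6 was not called (0.33). The 6 keratocyte markers summed to 8142 to 13658 in SF/HA-HEP-PAM, 24466 to 27318 in SF/HA, 18901 to 27294 in Alkali-burned and 12469 to 27958 in Control. In Alkali-burned and SF/HA against Control, single keratocyte markers went different ways. Kera (-1.86 and -1.62) and Angptl7 (-4.54 and -3.25) were called lower in Alkali-burned and SF/HA than in Control. Dcn was called higher in SF/HA than in Control (1.07). The 6 mural cell markers summed to 213 to 328 in SF/HA-HEP-PAM, 104 to 211 in SF/HA, 102 to 107 in Alkali-burned and 58.7 to 222 in Control, with Kcnj8 at 0 in SF/HA and Alkali-burned. Pdgfrb, the only tested mural marker, made up most of these sums, with means of 255 RPM in SF/HA-HEP-PAM and 91.9 in Alkali-burned. It was called higher in SF/HA-HEP-PAM than in Alkali-burned (1.43, adjusted p = 0.0108). The 6 blood vessel endothelium markers summed to 16.5 to 27.2 in SF/HA-HEP-PAM, 28.2 to 42.1 in SF/HA, 23.0 to 49.0 in Alkali-burned and 31.5 to 78.1 in Control, with Tek at 0 in SF/HA-HEP-PAM, SF/HA and Alkali-burned and Emcn at 0 in Control. The 4 neutrophil markers summed to 2118 to 19838 in SF/HA-HEP-PAM, 1671 to 17216 in SF/HA, 1281 to 6643 in Alkali-burned and 342 to 391 in Control. S100a9 made up most of these sums, with means of 7700 RPM in SF/HA-HEP-PAM, 6520 in SF/HA, 2807 in Alkali-burned and 342 in Control. Csf3r and Cxcr2 were not tested and were at 0 in Control. The 6 macrophage markers summed to 487 to 522 in SF/HA-HEP-PAM, 508 to 1042 in SF/HA, 584 to 719 in Alkali-burned and 160.4 to 194.9 in Control. Both lists, and the myofibroblast list that follows, were lowest in Control, as Dll1 was. The macrophage sum was lower in SF/HA-HEP-PAM than in Alkali-burned, the reverse of Dll1. Of its 5 tested markers, though, only Cd68 was called lower there (-1.65). Lyz2 (0.37), C1qa (0.02), C1qb (-0.30) and Aif1 (0.13) were not called. The 4 myofibroblast markers summed to 65.6 to 171 in SF/HA-HEP-PAM, 110.2 to 497 in SF/HA, 396 to 725 in Alkali-burned and 29.3 to 49.4 in Control, with Cnn1 at 0 in Control. All 3 tested ones were called lower in SF/HA-HEP-PAM than in Alkali-burned, Acta2 (-2.00), Tagln (-2.16) and Myl9 (-1.86). The 4 corneal endothelium markers summed to 85.9 to 105 in SF/HA-HEP-PAM, 104 to 186 in SF/HA, 199 to 286 in Alkali-burned and 80.1 to 167 in Control, and 3 of the 4 were called lower in SF/HA-HEP-PAM than in Alkali-burned. Of 6 conjunctiva and goblet cell markers 4 were in the table, and they summed to 699.7 to 1326 in SF/HA-HEP-PAM, 734 to 1482 in SF/HA, 982 to 2015 in Alkali-burned and 1149.7 to 2045 in Control, with Tff3 at 0 in all groups but Control. The part of any of these in the Notch values was not tested.

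The Notch genes followed each other loosely across the libraries. The highest Pearson correlation between 2 of them over the 12 libraries was 0.77, between Jag1 and Notch1, and Jag1 and Hes1 gave 0.64, while Notch2 and Hes1 gave -0.21. These are descriptions over libraries that share their groups. The genes most like Jag1 over the 12 libraries were Etv3, a transcriptional repressor of the ETS family (r = 0.97), and Oga, which removes a sugar from nuclear proteins (r = 0.97). Etv3 averaged 354 RPM in SF/HA-HEP-PAM, 50.1 in SF/HA, 43.3 in Alkali-burned and 29.5 in Control. Those most like Notch1 were the transcription factor Foxp1 (r = 0.98) and the splicing factor Srsf4 (r = 0.97). Foxp1 averaged 99.9 RPM in SF/HA-HEP-PAM, 49.3 in SF/HA, 34.6 in Alkali-burned and 54.4 in Control, so like Notch1 it was highest in SF/HA-HEP-PAM and lowest in Alkali-burned. For Dll1 they were the interferon receptor Ifngr1 (r = 0.96) and the amino acid transporter subunit Slc3a2 (r = 0.95), and for Hes1 Elmo3 (r = 0.92) and Tor3a (r = 0.91). For Jag2 they were Plxnb2 and Gpat3 (r = 0.94 and 0.90), and for Notch2 Zfp281 and Dnajb12 (r = 0.92 and 0.89).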

How the data were processed

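RNA from 12 rat cornea libraries was sequenced after barcoded poly(dT) priming with molecular identifiers, per the labels' protocols. FPKM values were deposited for every gene and library. For read cleaning and counting the series text names fastp and HTSeq-count, while the submitters' processing notes list featureCounts together with STAR, fastp, bcl2fastq and DESeq2, on build mRatBN7.2. Which counter made the table, and whether duplicate molecules were collapsed, is not given in the sources used here.

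A gene was named in 30452 lines (7092 of them without a symbol), and 108 lines naming none were dropped. In all 30452 the deposited length is the genomic span. Dividing FPKM times length by the value of 1 read gave whole reads in every library, within 0.05. Depth is 486264 to 2117399 reads, and intervals and floors (3 reads) cover counting error only.

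RPM (FPKM times length in kb) was tested as log2(value + 2) in R 4.3.3 with limma 3.58.1, with a variance trend, fitting the 4 group means to all 12 libraries, for 8000 genes with at least 10 RPM in at least 3 libraries. P-values were Benjamini-Hochberg adjusted within each of 6 comparisons. The fit was tested on simulated data. Same-numbered replicates did not deviate together (18 pairs, r -0.21 to 0.22, above 0.1 in 4), so no block was used. Named genes were the 8 Notch genes, called genes and the top gene per class of a pathway list, and the 2 most correlated genes per tested member. Members and lists were chosen with earlier results of these data known. The 27 alternatives are in the closing section; subtracting the length trend and keeping protein-coding genes only were added after the data were seen. Promoters came from RefSeq tables of GRCr8, with 7 of 8 members matched. Figures used Python 3.11.15 and matplotlib 3.10.9.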

Additional observations from a re-analysis of the deposited data

How the results depend on the processing

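Of 9 calls of Notch genes, 5 held under every alternative in which the gene was tested: Jag1 in the 3 SF/HA-HEP-PAM comparisons (log2 2.15 to 3.07), Notch1 against Alkali-burned (1.57 to 2.12) and Dll1 in SF/HA-HEP-PAM against Control. With log2(FPKM + 1) the called Notch genes numbered 1 in SF/HA-HEP-PAM against Alkali-burned, 1 in SF/HA-HEP-PAM against SF/HA and 0 in SF/HA against Control. Notch1 was not tested there, and Dll1 fell under the size in SF/HA-HEP-PAM against Alkali-burned (0.85) and SF/HA against Control (0.95). In SF/HA against Control 0 were called at 30 RPM or more, where Dll1 was not tested, with only the 2 groups (adjusted p = 0.0563) or with thinned reads. In Alkali-burned against Control 1 was called with no variance trend (Dll1) and, over fits without 1 library, 0 to 1 (Notch1). With the length trend subtracted 1 was called in SF/HA-HEP-PAM against SF/HA. Notch1 against Control also fell under the size with median-of-ratios scaling (0.91) and quantile normalization (0.84).

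Signs changed only in values never called. Notch2 came to -0.11, -0.20 and -0.38 in SF/HA-HEP-PAM against SF/HA (median-of-ratios, quantile, length trend), -0.0591 and -0.16 against Control (quantile, length trend), -0.0365 against Alkali-burned (length trend), 0.11 in Alkali-burned against Control (library weights) and -0.14 in SF/HA against Control (thinned). Hes1 came to 0.00859 (median-of-ratios) and 0.0426 (thinned) and Jag2 to 0.13 (thinned) in SF/HA against Control, and Jag1 to 0.0312 in SF/HA against Alkali-burned (quantile). Without 1 library, Notch2 ranged from -0.51 to 0.16 in Alkali-burned against Control, -0.0644 to 0.32 in SF/HA-HEP-PAM against SF/HA, -0.21 to 0.46 in SF/HA against Control and -0.12 to 0.55 in SF/HA-HEP-PAM against Control; Jag1 from -0.24 to 0.18 in Alkali-burned against Control, -0.50 to 0.33 in SF/HA against Alkali-burned and -0.56 to 0.27 in SF/HA against Control; there Jag2 ranged from -0.31 to 0.00153 and Hes1 from -0.22 to 0.16. The cause was not tested.

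All genes called numbered 1480, 723 and 1393 for SF/HA-HEP-PAM against Alkali-burned, SF/HA and Control, 293 and 580 for SF/HA against Alkali-burned and Control, and 680 for Alkali-burned against Control. In the same order they came to 678, 267, 709, 149, 279 and 348 with log2(FPKM + 1), which tests 6112 genes. At 30 RPM or more (4382 genes) they came to 965, 477, 887, 231, 369 and 447. With only the 2 groups SF/HA against Control had 358. Without Alkali-burned replicate 2, Alkali-burned replicate 3 or SF/HA replicate 2, SF/HA against Alkali-burned had 136, 126 and 153, and without SF/HA replicate 3, SF/HA-HEP-PAM replicate 1 or SF/HA-HEP-PAM replicate 3, SF/HA-HEP-PAM against SF/HA had 381, 415 and 379. Of 15 wider pathway calls 2 held under every alternative in which the gene was tested. With a replicate block the called Notch genes numbered 3, 2 and 3 for SF/HA-HEP-PAM against Alkali-burned, SF/HA and Control, 1 in SF/HA against Control and 0 elsewhere, as without it; all genes called in SF/HA-HEP-PAM against Alkali-burned came to 1494 with it and 1480 without. Adam17 in that comparison (adjusted p = 0.0505) and Lfng in SF/HA against Control (0.0580) lost their calls with the block. Notch3 and Hey1, with at most 8 reads in any library, were not tested because neither reached 10 RPM in any library.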
